A study of Mus musculus with 36 samples.

Results

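SIN3A and CHD4 belong to different histone deacetylase complexes, and their binding sites were compared here in mouse embryonic stem cells (ESCs). ChIP-seq, which sequences the DNA that is precipitated with a protein, had been done on wild-type R1 ESCs grown in serum and LIF with PD0325901 and CHIR99021, an inhibitor of MEK and an inhibitor of GSK3. The cells carried no deletion and no added factor according to their labels. A SIN3A site was a peak of the preparation with spike-in chromatin that overlapped a peak of the preparation without spike-in by at least 1 bp, which gave 8843 sites. A CHD4 site was a peak of replicate 1 that overlapped a peak of replicate 2, which gave 8246 sites. These sites fell into 7777 SIN3A-only, 1066 common and 7169 CHD4-only sites, or 16012 regions, set against 104813 peaks in the 9 peak lists analysed from a series of 36 samples. Counted from CHD4, the common class held 1077 sites.

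SIN3A is a scaffold protein that holds the deacetylases HDAC1 and HDAC2 and is brought to DNA by transcription factors, among them REST, the repressor of neuronal genes. CHD4 is the ATP-dependent remodelling subunit of the NuRD complex, which also holds HDAC1 and HDAC2 and in which MBD3 joins the remodelling and deacetylase parts. In ESCs both complexes are found at active promoters, and NuRD is also found at enhancers bound by pluripotency factors.

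The 4 lists were not alike. SIN3A gave 16170 peaks without and 11422 with spike-in, and CHD4 gave 11712 peaks in replicate 1 and 29974 in replicate 2. Peak names of the SIN3A list without spike-in carry a threshold of 0.0001 and the others 0.001. Peak names of both CHD4 lists mention reads normalized to 17 M and those of SIN3A mention no such step, so the depth behind the SIN3A lists was unknown. The labels of CHD4 replicate 2 give wild-type cells, but its peak names contain the name of a Zfp219 BAC. The labels do not say whether lists of a factor come from separate cultures, and spike-in and preparation cannot be told apart for SIN3A. Each peak carries a value of the authors on a −log10 scale, here called the peak value, which was compared only within a list.

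Distal SIN3A-only sites are shown by examples with the left part of the RE1 element, the sequence read by REST. It was found in 38 of 698 of these sites (5.44%), so most lacked it. The printed examples are among the strongest such sites outside promoters and annotated untranslated regions. They are read on the strand of the match from the mm9 reference, with the string TTCAGCACC in capitals. Where the letters GGACAG of the right part follow after 2 bases they are in capitals too.
Intron of Unc5a, chr13:55072384-55072432, plus strand: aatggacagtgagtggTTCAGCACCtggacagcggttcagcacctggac
Upstream of Vstm2l, chr2:157739236-157739284, minus strand: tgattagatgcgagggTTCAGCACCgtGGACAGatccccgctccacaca
Intergenic, nearest TSS Zfp820, chr17:21938580-21938628, minus strand: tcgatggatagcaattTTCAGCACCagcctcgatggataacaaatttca
Intergenic, nearest TSS Kcnk9, chr15:72399075-72399123, minus strand: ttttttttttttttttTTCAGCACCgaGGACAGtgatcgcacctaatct
Intron, nearest TSS Rbfox3, chr11:118446369-118446417, minus strand: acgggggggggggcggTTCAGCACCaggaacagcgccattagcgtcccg

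Common distal sites are shown by the KLF string CCACACCC, the letters read by KLF4 and its relatives, and the TCF string ATCAAAG, read by the Wnt effectors of the TCF family. They were found in 9.11% and 7.02% of distal common sites, and in 7.04% and 3.75% of distal CHD4-only sites. For each string, 2 sites of high peak value are printed with the string in capitals.
KLF string upstream of Zfp42, chr8:44406270-44406309, minus strand: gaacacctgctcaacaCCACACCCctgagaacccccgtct
KLF string upstream of Foxd3, chr4:99302977-99303016, minus strand: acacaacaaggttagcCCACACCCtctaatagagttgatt
TCF string in an intron, nearest TSS Tmem51, chr4:141625595-141625633, plus strand: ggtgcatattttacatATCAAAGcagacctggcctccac
TCF string upstream of Lifr, chr15:7032057-7032095, plus strand: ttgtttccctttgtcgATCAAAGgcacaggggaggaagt

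CHD4-only sites are shown by the string TCAAGGTCA, the extended site of the orphan nuclear receptor ESRRB. It was found in 3.44% of distal CHD4-only sites, so most lacked it, and in 3.795% of distal common sites.
Intergenic, nearest TSS Klf6, chr13:5549626-5549666, plus strand: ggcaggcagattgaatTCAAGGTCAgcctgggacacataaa
Intron, nearest TSS Capn2, chr1:184431091-184431131, plus strand: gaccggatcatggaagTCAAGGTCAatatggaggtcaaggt

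SIN3A-only promoters are shown by the ETS string CCGGAAGT and by the string AAGATGGCG of YY1, a zinc finger factor of many housekeeping promoters. They were found in 4.74% and 2.08% of SIN3A-only promoter sites, and in 4.19% and 1.94% of all gene 5′ ends.
ETS string, Gar1 promoter, chr3:129534335-129534374, plus strand: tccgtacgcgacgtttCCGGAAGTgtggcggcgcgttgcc
YY1 string, Rbm15b promoter, chr9:106789368-106789408, minus strand: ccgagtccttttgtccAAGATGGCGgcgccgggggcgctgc

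The central 100 bases of a common promoter site and of a CHD4-only distal site, with CG in capitals, are given as examples of CpG-rich and CpG-poor sites, and differ in position as well as class. The former has 13 CG and is 75% G or C, and the latter has 2 CG and is 47% G or C.
Mll1 promoter, common, chr9:44689486-44689585, plus strand: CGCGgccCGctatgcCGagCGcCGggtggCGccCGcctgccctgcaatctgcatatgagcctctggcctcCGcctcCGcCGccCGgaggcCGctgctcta
Intron, nearest TSS Bcar3, CHD4-only, chr3:122138123-122138222, plus strand: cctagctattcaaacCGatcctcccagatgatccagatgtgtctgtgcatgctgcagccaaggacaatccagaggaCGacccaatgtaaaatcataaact

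Most SIN3A sites lacked CHD4 and most CHD4 sites lacked SIN3A. A CHD4 site overlapped 1066 of 8843 SIN3A sites, or 12.1% (95% exact binomial interval 11.4 to 12.8), and a SIN3A site overlapped 1077 of 8246 CHD4 sites, or 13.1% (12.3 to 13.8). Both shares were above the background measured by moving every site by 10 kb, where 0.837% of SIN3A sites (0.658 to 1.05) and 1.08% of CHD4 sites (0.868 to 1.33) found a partner. The shares depended on the CHD4 list. With the peaks of CHD4 replicate 2 alone as CHD4 sites, the share of SIN3A sites with CHD4 was 34.0%. With the SIN3A peaks without spike-in alone as SIN3A sites, the share of CHD4 sites with SIN3A was 26.8%.

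The name of a class therefore means a site that was not found in both lists of the other factor. Of the 7777 SIN3A-only sites, 1937 (24.9%) had a peak in CHD4 replicate 2 only and 170 (2.19%) in replicate 1 only. No peak of either CHD4 list was found at 5641 of them (72.5%, interval 71.5 to 73.5). Of the 7169 CHD4-only sites, 1146 (15.99%) had a peak only in the SIN3A list without spike-in and 5739 (80.1%, interval 79.1 to 81.0) in neither SIN3A list. The 1 bp rule decided few sites. Of the common sites, 62 overlapped by less than 50 bp, and 54 SIN3A-only sites had a CHD4 site less than 50 bp away. Over all 1066 common sites the median overlap was 178 bp and the median distance between midpoints 84 bp.

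SIN3A-only sites were promoter sites, CHD4-only sites were mostly distal, and common sites were divided between promoters and distal regions. For sites on the autosomes (1 to 19) and sex chromosomes, the midpoint was placed first against transcription start sites (TSS) of protein-coding transcripts, each with a window that began 1 kb before and ended 5 kb after it. Sites outside these windows, called distal, were divided into exonic, intronic and intergenic ones. The TSS window held 7074 of 7772 SIN3A-only sites (91.0%, interval 90.4 to 91.6), 537 of 1064 common sites (50.5%, 47.4 to 53.5) and 1364 of 7157 CHD4-only sites (19.1%, 18.2 to 19.99). Intergenic sequence held 5.76% of SIN3A-only, 31.4% of common and 52.1% of CHD4-only sites. Introns held 2.65%, 17.1% and 27.6%, and exons outside the TSS window held 0.566%, 1.03% and 1.27%.

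The odds of a TSS position were 43.0 times higher for SIN3A-only than for CHD4-only sites (95% interval 39.0 to 47.5) in a two-sided Fisher's exact test whose p was below the smallest value the software can hold. They were 9.95 times higher for SIN3A-only than for common sites (8.62 to 11.5, exact adjusted p = 1.51e-206) and 4.33 times higher for common than for CHD4-only sites (3.79 to 4.95, exact adjusted p = 1.60e-98). Sites are not replicates of an experiment, so these p-values and all those on sites below cover counting error only. Each order held with either list of a factor used alone, with odds ratios of 26.7 to 47.1, 5.06 to 8.46 and 3.598 to 9.32. Among the 3 TSS shares, that of the common class had the widest range when a list was left out. It was 42.1% with the SIN3A peaks without spike-in alone and 72.7% with the peaks of CHD4 replicate 2 alone.

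**Figure D1:**
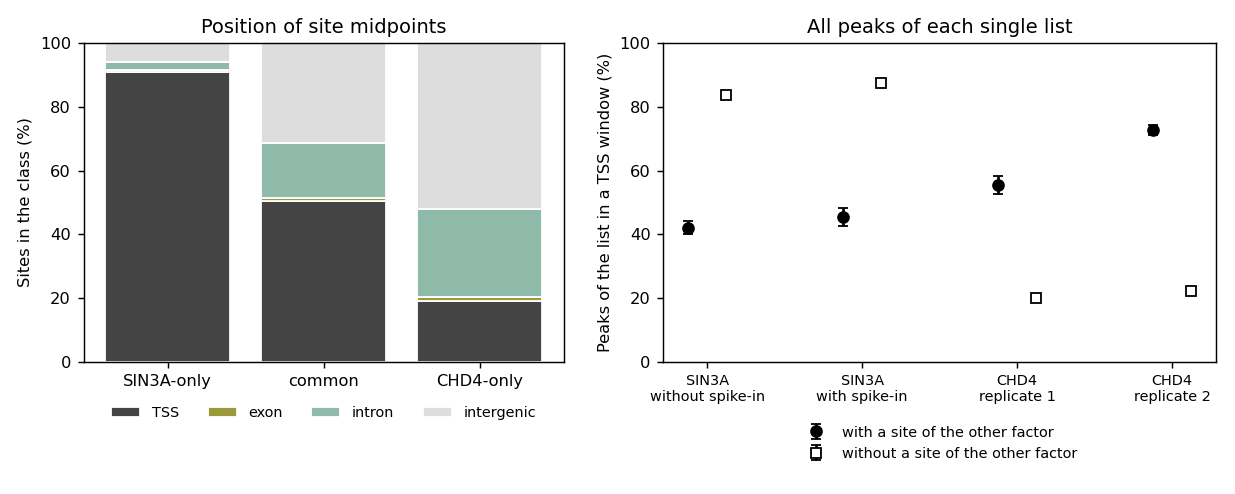
Left, share of SIN3A-only, common and CHD4-only sites (%) by position of the site midpoint, with the TSS window taking 91.0%, 50.5% and 19.1%. Right, share of all peaks of each single list in a TSS window (%), for peaks with and without a site of the other factor. Bars are 95% exact binomial intervals, and SIN3A peaks with CHD4 lie below those without, while CHD4 peaks with SIN3A lie above those without.

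The same contrast was present among all peaks of each list. Of the SIN3A peaks without spike-in, 42.1% of those with a CHD4 site and 83.7% of those without lay in a TSS window. With spike-in the shares were 45.4% and 87.6%. CHD4 peaks went the other way, at 55.6% with a SIN3A site and 20.1% without in replicate 1, and at 72.8% and 22.2% in replicate 2. Both lists of each factor thus gave the same direction, without overlap of their intervals.

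SIN3A-only sites sat on the TSS itself. Their midpoints lay a median of 158 bp from the nearest TSS, against 2249 bp for common and 14074 bp for CHD4-only sites. Within 500 bp of a TSS lay 6114 SIN3A-only sites (78.7%), 396 common sites (37.2%) and 596 CHD4-only sites (8.33%). More than 10 kb away lay 5.53%, 33.6% and 58.7%. CHD4-only sites that did fall in a TSS window were spread into the gene: 468 of 1364 (34.3%) lay more than 1 kb downstream of the TSS, against 305 of 7074 SIN3A-only sites (4.31%) and 79 of 537 common sites (14.7%). At common promoter sites the CHD4 midpoint was upstream of the SIN3A midpoint in 305 of 537 (56.8%), by a median of 26 bp over all of them (the median of CHD4 minus SIN3A along the gene was -26 bp).

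**Figure D2:**
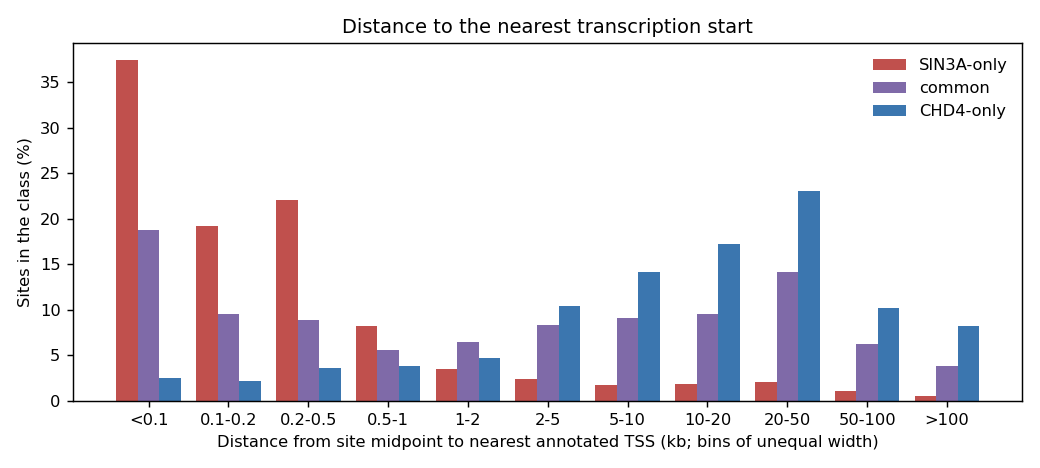
Share of sites of each class (%) by distance from the site midpoint to the nearest TSS of a protein-coding transcript (kb, bins of unequal width). SIN3A-only sites pile up below 0.5 kb, CHD4-only sites between 5 and 50 kb, and common sites show both groups.

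The classes also differed in base composition. The central 200 bp of SIN3A-only, common and CHD4-only sites had a median of 69.0%, 59.5% and 49.5% G or C, and a median ratio of observed to expected CpG of 0.870, 0.486 and 0.2199. CpG islands, the unmethylated CpG-rich stretches at most housekeeping promoters, have a high ratio. Windows 10 kb downstream had medians of 45.5%, 46.5% and 46.5% G or C, so the classes did not differ there as they did at the sites. Among TSS sites, SIN3A-only and common sites were alike in G and C (69.5% and 69.0%) and CHD4-only sites were lower (54.0%), below the 59.0% of all 22367 gene 5′ ends. Distal SIN3A-only sites still had a CpG ratio of 0.568, against 0.248 for distal common and 0.197 for distal CHD4-only sites.

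The 22 strings of letters known from transcription factor motifs were counted on both strands in the central 200 bp, separately in TSS and distal sites. Of 132 tests over the 3 pairs of classes, 51 (38.6%) passed an adjusted p of 0.05 in two-sided Fisher's exact tests. Among distal sites, SIN3A-only sites held more of 9 strings and less of 4 than CHD4-only sites. Among TSS sites they held more of 7 and less of 9. The classes differed in G and C content as given above, and its part in these differences was not tested. The strings described below were picked by the size of their odds ratios or after their values were seen. By share of sites, the GC box GGGGCGGGG, read by SP1, was ahead of either RE1 part in distal SIN3A-only sites. It was in 58 of 698 of them (8.31%), in 4.55% of distal common and in 1.69% of distal CHD4-only sites. The odds ratio of SIN3A-only over CHD4-only was 5.27 (exact test, adjusted p = 6.66e-17).

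The RE1 parts were most frequent in distal SIN3A-only sites, with common TSS sites close behind for the right part, as given below. The left part TTCAGCACC was found in 38 of 698 distal SIN3A-only sites (5.44%), in 2 of 527 common sites (0.380%) and in 13 of 5793 CHD4-only sites (0.224%). It was found in 0.143% of windows 10 kb downstream of these SIN3A-only sites and in 0.326% of all gene 5′ ends. The odds were 25.6 times higher in SIN3A-only than in CHD4-only sites (exact test, adjusted p = 1.01e-24) and 15.1 times higher than in common sites (exact test, adjusted p = 1.05e-06). The right part GGACAGCGC was found in 17 distal SIN3A-only sites (2.44%), 2 common sites (0.380%) and 6 CHD4-only sites (0.104%), with an odds ratio of 24.1 for SIN3A-only over CHD4-only (exact test, adjusted p = 3.42e-11). With either list of a factor used alone, the odds ratio of the left part over CHD4-only sites stayed between 11.9 and 52.4 and that of the right part between 13.9 and 27.8. The odds ratio of the left part over common sites ranged from 8.07, without the SIN3A list that had no spike-in, to 19.98.

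At TSS sites the left part was found in 0.806% of SIN3A-only and 0.147% of CHD4-only sites (odds ratio 5.53, exact adjusted p = 0.0137), and this call was lost under 5 of the alternatives, among them without CHD4 replicate 2 (odds ratio 1.89). The right part was in 11 of 537 common TSS sites (2.05%), 1.29% of SIN3A-only and 0.367% of CHD4-only TSS sites. Its odds ratio of common over CHD4-only was 5.68 (exact test, adjusted p = 0.00364). This call was lost, among others, without the SIN3A list that had spike-in (odds ratio 2.93). The CRE string TGACGTCA, read by CREB and ATF factors, was found in 7 distal SIN3A-only, 3 common and 3 CHD4-only sites (odds ratio of SIN3A-only over CHD4-only 19.6, exact adjusted p = 0.000106). That odds ratio was 6.54 without CHD4 replicate 1, 9.68 without CHD4 replicate 2 and 11.97 without the SIN3A list that had no spike-in. The string CTCGCGAG was found in 5, 0 and 4 of them (odds ratio 10.4, exact adjusted p = 0.00479), and this call was lost under 4 alternatives. These were without CHD4 replicate 1 (odds ratio 7.41), without chromosome 6 (6.30), with sites that had no peak in either list of the other factor (6.37) and with peak values of 10 or more (33.2).

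The RE1 matches were of more than 1 kind. In 15 of the 38 distal SIN3A-only sites the left part occurred more than once in the 200 bp, as in the Unc5a sequence above, where a further copy follows in lower case. Counting only the 23 sites with a single copy, a choice made after the values were seen, the odds ratio over CHD4-only sites was 15.1 (7.64 to 30.0, exact adjusted p = 2.70e-13). In 9 distal SIN3A-only sites, 0 distal common sites and 0 distal CHD4-only sites the left part was followed after 2 bases by GGACAG. A count of 0 allows a share of up to 3 sites, here of 527 and of 5793. Among TSS sites the counts were 12 of 7074 SIN3A-only, 2 of 537 common and 0 of 1364 CHD4-only sites.

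The 9 distal sites were named after their values were seen. Peak values of SIN3A were 167 without and 35.9 with spike-in at the site upstream of Kcnk9, a potassium channel gene. They were 92.3 and 28.7 at the site nearest to Rbfox3, which encodes the neuronal marker NeuN and where a further copy than the one printed is followed by GGACAG. At the intronic site of Syt7, a calcium sensor of synaptic vesicles, they were 47.4 and 6.90, and at that of Nova2, a neuronal splicing regulator, 10.3 and 6.82. The highest values of the 9, 238 without and 104 with spike-in, were at the site nearest to Gm16532. The others had 63.3 and 49.8 nearest to Vstm2l, 42.0 and 24.1 nearest to Crhr2, and 69.2 and 17.2 nearest to Lin28a. At the site nearest to Zc3h12a, more than 100 kb away, they were 10.3 and 11.2. Functions are given for some of the 9 only, and a link of these sites to neuronal genes was not tested. No CHD4 peak of either replicate overlapped any of the 9. The class excludes CHD4 sites by its rule, and 72.5% of all SIN3A-only sites had no peak of either CHD4 list.

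Strings of pluripotency factors did not follow 1 pattern among distal sites, and those of ESRRB and KLF were less frequent in SIN3A-only sites. Among distal sites the ESRRB string was found in 0.860% of SIN3A-only, 3.795% of common and 3.44% of CHD4-only sites. Windows 10 kb downstream of the CHD4-only sites held it in 0.708%. The odds in SIN3A-only sites were 0.244 of those in CHD4-only sites (exact test, adjusted p = 0.000292) and 0.2198 of those in common sites (exact test, adjusted p = 0.00240). The KLF string was found in 3.15%, 9.11% and 7.04% of distal sites, with odds in SIN3A-only sites 0.325 of those in common sites (exact test, adjusted p = 8.45e-05). Between common and CHD4-only distal sites neither string passed the test (exact test, adjusted p = 0.737 for ESRRB and 0.181 for KLF). The STAT3 string TTCCNGGAA went the other way, at 2.29% of SIN3A-only, 2.09% of common and 1.16% of CHD4-only distal sites, with an odds ratio of SIN3A-only over CHD4-only of 2.005 (exact test, adjusted p = 0.0486).

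The TCF string was more frequent in common than in CHD4-only distal sites when common sites were centred on their SIN3A peaks. It was found in 37 of 527 common sites (7.02%), 217 of 5793 CHD4-only sites (3.75%) and 10 of 698 SIN3A-only sites (1.43%), and in 1.90% of windows 10 kb downstream of the common sites. The odds were 1.94 times higher in common than in CHD4-only sites (exact test, adjusted p = 0.00303). Counted in the CHD4 peaks of the common class, which have other midpoints, the string was in 27 of 542 distal sites (4.98%, interval 3.31 to 7.17). That interval includes the 3.75% of CHD4-only sites, and this count was not tested. The string ACATTCCA of the TEAD factors, which act in Hippo signalling, followed the same order, at 3.23%, 1.55% and 0.573% (odds ratio of common over CHD4-only 2.11, exact adjusted p = 0.0240). The SOX string CCATTGT was found in 6.83% of common and 4.52% of CHD4-only distal sites and did not pass (exact test, adjusted p = 0.0573). The octamer ATGCAAAT of POU5F1 was at 3.795%, 3.30% and 2.29% in distal common, CHD4-only and SIN3A-only sites, and no pair passed.

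TSS sites differed in their strings as well. They were not matched for distance to the TSS. Within 500 bp of it lay 86.4% of SIN3A-only, 73.7% of common and 43.7% of CHD4-only TSS sites. The part of this distance in the string differences was not tested. The YY1 string was found in 147 of 7074 SIN3A-only TSS sites (2.08%), 6 of 537 common sites (1.12%) and 2 of 1364 CHD4-only sites (0.147%), and in 1.94% of all gene 5′ ends. The odds ratio of SIN3A-only over CHD4-only was 14.5 (exact test, adjusted p = 4.31e-08) and ranged from 6.31 to 26.0 with either list of a factor used alone. The ETS string was found in 4.74%, 3.35% and 1.69% (odds ratio of SIN3A-only over CHD4-only 2.90, exact adjusted p = 3.42e-07), with 4.19% at all gene 5′ ends. The GC box GGGGCGGGG, read by SP1, was found in 12.1%, 14.7% and 5.87%, with 11.8% at all gene 5′ ends. The E2F string TTCCCGCC and the CCAAT string AGCCAAT were also more frequent in SIN3A-only than in CHD4-only TSS sites (odds ratios 2.14 and 1.87, exact adjusted p = 0.00171 and 0.00777). The E2F string was in 3.39% of SIN3A-only TSS sites and 2.03% of all gene 5′ ends. The CCAAT string was in 3.38% of SIN3A-only TSS sites, below the 6.29% of all gene 5′ ends.

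CHD4-only TSS sites held more of other strings than SIN3A-only TSS sites did, among them those of ESRRB and POU5F1. The ESRRB string was in 35 of 1364 (2.57%), 7 of 537 common (1.30%) and 14 of 7074 SIN3A-only TSS sites (0.198%), and in 0.156% of all gene 5′ ends. The odds in SIN3A-only sites were 0.0753 of those in CHD4-only sites (exact test, adjusted p = 3.96e-16), and 0.134 without CHD4 replicate 1. The octamer was in 0.325% of SIN3A-only, 1.68% of common and 1.54% of CHD4-only TSS sites (exact test, adjusted p = 0.00150 for SIN3A-only against common and 8.46e-06 against CHD4-only). AP-1, KLF, TCF and CTCF strings were likewise less frequent in SIN3A-only than in CHD4-only TSS sites, with odds ratios of 0.303, 0.380, 0.330 and 0.486. The CTCF string was in 3.74% of CHD4-only TSS sites and 1.001% of CHD4-only distal sites.

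**Figure D3:**
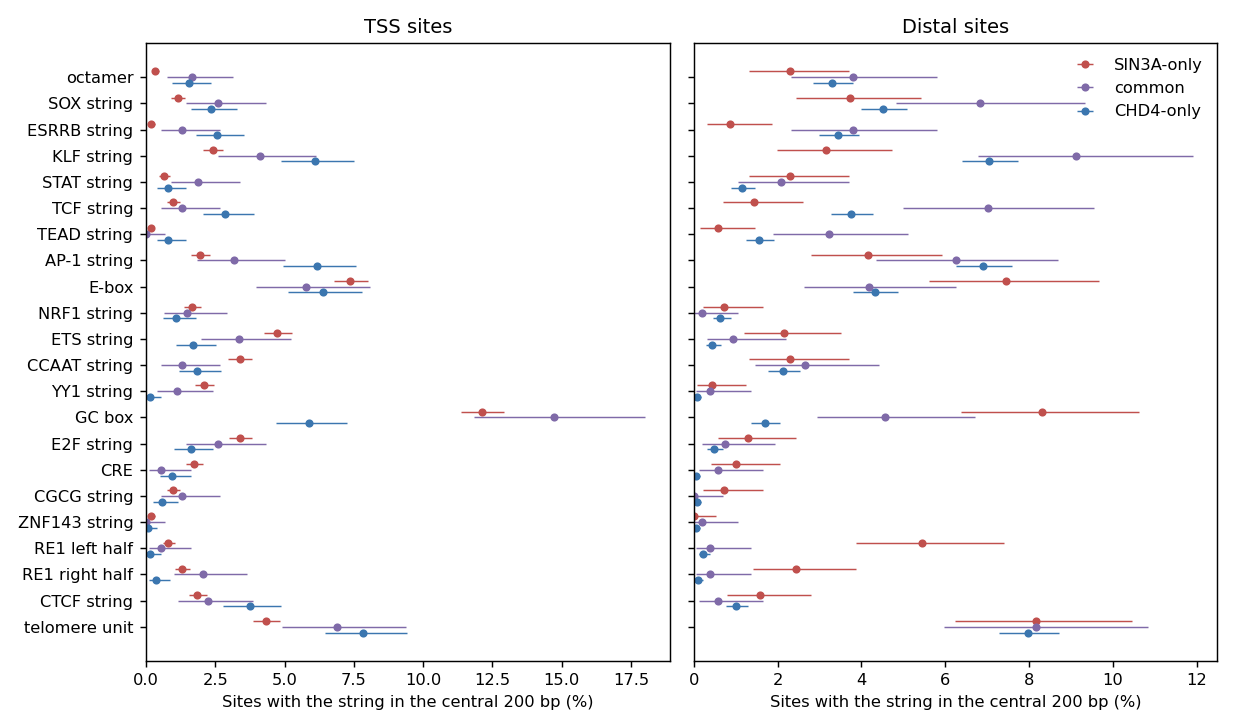
Share of sites (%) with each of 22 strings in the central 200 bp on either strand, for TSS sites (left) and distal sites (right) of the 3 classes, with 95% exact binomial intervals. Both RE1 parts stand out in distal SIN3A-only sites at 5.44% and 2.44%, and the KLF and TCF strings are highest in distal common sites at 9.11% and 7.02%. Between common and CHD4-only distal sites the KLF string did not pass the test. Counted in the CHD4 peaks of distal common sites, the TCF string was at 4.98%.

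At the level of genes, a SIN3A site without a CHD4 site lay in the TSS window of 5632 of 22367 protein-coding genes (25.2%), both lay in that of 972 (4.35%), and a CHD4 site alone in that of 656 (2.93%). The sites of both factors overlapped at 531 of the 972 genes and lay at different places in the window of the others. With the peaks of CHD4 replicate 2 alone as CHD4 sites, 15.9% of genes had SIN3A only, 13.7% both and 12.7% CHD4 only. Gene lists are described by their counts beside these shares. They were chosen by function with earlier results of these data known, and no set test was run.

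The housekeeping lists had SIN3A without a CHD4 site at a higher share than the 25.2% of all genes. Of 39 DNA replication genes, 26 (66.7%) had SIN3A only, 1 had both and 0 had CHD4 only. The shares with SIN3A only were 64.9% of 37 aminoacyl-tRNA synthetases, 62.1% of 29 core splicing factors, 52.6% of 76 mitochondrial ribosomal proteins and 42.1% of 76 respiratory chain and ATP synthase genes. Cytosolic ribosomal protein genes were nearer to the share over all genes, at 30.3% of 76. The proportion with both factors stayed between 2.56% and 5.26% in these lists and in the proteasome list, near the 4.35% of all genes. A peak in at least 1 CHD4 list was nevertheless found at 30 of 76 mitochondrial ribosomal and 25 of 76 respiratory chain genes, beside 28.2% of all genes. It was found at 10 of 39 DNA replication and 10 of 37 aminoacyl-tRNA synthetase genes.

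Rpl22, a ribosomal protein gene, had one of the strongest SIN3A-only promoter sites, chr4:151699557-151700335, with peak values of 104 without and 119 with spike-in and no CHD4 peak. At Gins3, a subunit of the replicative helicase, the SIN3A values were 35.8 without and 38.7 with spike-in, and CHD4 had a peak of 6.34 in replicate 2 only. Yars, the tyrosyl-tRNA synthetase, had SIN3A values of 36.2 and 33.2, and again a CHD4 peak in replicate 2 only (13.1). Mrpl44, of the mitochondrial ribosome, was among the 4 genes of its list with both, with SIN3A values of 20.8 and 42.7 and CHD4 values of 13.2 and 11.4. CHD4 replicate 2 thus had a peak at some of the promoters counted as SIN3A only.

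Both factors were found at 9 of 17 pluripotency regulators (52.9%), against 4.35% of all genes. SIN3A only was found at 6 (35.3%), against 25.2% of all genes. Prdm14 had CHD4 only and Nr0b1 had no peak in any of the 4 lists. At 8 of the 9 the sites overlapped, with Utf1 as the exception. Pou5f1, which encodes OCT4, had SIN3A values of 18.9 without and 20.7 with spike-in and CHD4 values of 20.1 in replicate 1 and 31.9 in replicate 2. Nanog had SIN3A values of 24.2 and 9.55 and CHD4 values of 22.3 and 34.6. Sox2 had SIN3A values of 20.3 and 11.4 and CHD4 values of 16.8 and 22.2. All 3 genes of the core network thus had a peak of both factors in every list.

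The other genes with both were Nr5a2, Tbx3, Esrrb, Utf1, Sall4 and Zfp42, with SIN3A values of 11.6 to 29.4 without and 8.61 to 14.7 with spike-in. Their CHD4 values ran from 9.37 to 14.2 in replicate 1 and from 7.95 to 17.5 in replicate 2. The 6 genes with SIN3A only were Klf2, Klf4, Klf5, Stat3, Gbx2 and Zfp296. At 4 of them CHD4 replicate 2 had a peak, of 11.8 at Klf4, 10.3 at Klf5, 5.02 at Stat3 and 18.97 at Zfp296, and neither list had one at Klf2 or Gbx2. Prdm14, a regulator of naive pluripotency, had CHD4 values of 11.3 and 19.7 and a SIN3A peak of 10.4 only without spike-in. Within 100 kb of the 17 genes lay 51 SIN3A-only, 35 common and 114 CHD4-only sites, or 3, 2.06 and 6.71 per gene, against 1.88, 0.229 and 1.37 per gene over all protein-coding genes. Tbx3, with 20, and Nanog, with 16, had the most CHD4-only sites.

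A SIN3A site was found at 81.25% of SIN3 complex genes and 40% of NuRD genes, beside 29.5% of all genes, and a CHD4 site at 18.75% and 6.67%, beside 7.28%. The NuRD list was thus near the shares over all genes. Of 16 SIN3 complex genes, 10 had SIN3A only and 3 had both. Sin3a itself had values of 26.3 without and 31.2 with spike-in and no CHD4 peak. Ing1, which encodes a reader of methylated histone H3, had SIN3A values of 36.3 and 18.5 and CHD4 values of 9.19 and 9.94. Tet1, a methylcytosine dioxygenase that associates with SIN3A, had SIN3A values of 15.4 and 5.29 and CHD4 values of 23.6 and 20.2. Arid4b was the third gene with both, and Brms1l, Ogt and Sap18 had no site of either factor. The remaining members with SIN3A only, besides Sin3a, were Ing2, Arid4a, Sap30l, Fam60a, Sap30, Sin3b, Sap130, Brms1 and Suds3, with values of 7.48 to 22.6 with spike-in.

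Of 15 NuRD genes, 5 had SIN3A only, Gatad2a had both and 9 had neither. Gatad2a, a subunit that links MBD3 to CHD4, had SIN3A values of 36.6 and 51.7 and CHD4 values of 9.16 and 10.8. Hdac2, shared by both complexes, had SIN3A values of 11.8 and 14.7 and a CHD4 peak of 11.7 in replicate 2 only. Chd4 had SIN3A values of 11.7 and 7.89 and a CHD4 peak of 5.91 in replicate 1 only, and Mta2, Rbbp4 and Cdk2ap1 completed the group. Among the 9 with neither, Hdac1, Mbd3, Mta1 and Mta3 had a SIN3A peak without spike-in only, of 6.42 to 11.8, and Chd3 and Mbd2 one with spike-in only, of 7.23 and 16.4. Chd5, Gatad2b and Rbbp7 had no SIN3A peak.

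Signalling and Polycomb lists held both factors above the share over all genes, which was 4.35%. Both were found at 8 of 25 Polycomb genes (32.0%), 6 of 32 genes of the TGF-beta, Nodal and BMP pathway (18.8%), 6 of 38 Wnt pathway genes (15.8%) and 4 of 30 FGF and ERK pathway genes (13.3%). Nodal, the ligand, had SIN3A values of 27.2 and 10.9 and CHD4 values of 9.59 and 14.6. Id3, a target of BMP signals, had SIN3A values of 27.2 and 11.4 and CHD4 values of 15.2 and 12.1. Tcf7l1, a repressor of Wnt targets in ESCs, had SIN3A values of 11.9 and 12.4 and CHD4 values of 15.98 and 20.2. The receptor gene Fgfr1 had SIN3A values of 25.9 and 12.02 and CHD4 values of 12.1 and 15.8. Jarid2, a partner of PRC2, had SIN3A values of 24.6 and 20.3 and CHD4 values of 8.04 and 11.7. SIN3A without CHD4 was found at 63.3%, 40.6%, 40.0% and 36.8% of the FGF and ERK, TGF-beta, Polycomb and Wnt lists, against 25.2% of all genes.

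CHD4 without SIN3A was above the share over all genes in the lists of Hox, germline and lineage transcription factor genes. It was found at 8 of 40 Hox genes (20%) and 4 of 22 germline genes (18.2%), against 2.93% of all genes, and at 6 of 74 lineage transcription factors (8.11%). A CHD4 site with or without SIN3A was at 8.11% of the lineage list, near the 7.28% of all genes. A SIN3A site was at 8.11% of it, below the 29.5% of all genes. SIN3A without CHD4 was found at as many lineage transcription factors, 6 of 74, among them Emx1, Eomes and Cdx2. It was also found at 3 Hox genes (7.5%), against 25.2% of all genes. A peak in at least 1 SIN3A list was found at 16 of 40 Hox genes, beside 45.6% of all genes. Hoxa9 had CHD4 values of 8.16 and 16.6 and no SIN3A peak. Hoxa4 had CHD4 values of 12.9 and 10.3 and a SIN3A peak of 9.05 without spike-in only. Mesp1, a regulator of early mesoderm, had CHD4 values of 15.2 and 27.9 and no SIN3A peak. Dazl, which encodes a germ cell RNA-binding protein, had CHD4 values of 6.78 and 7.84, Hormad1 of 6.78 and 7.00, and Sycp2, a component of the synaptonemal complex, of 5.93 and 14.3, and none of these 3 had a SIN3A peak. Of the 22 germline genes, 0 had a SIN3A site and 1 had a peak in any SIN3A list, beside 29.5% and 45.6% of all genes. A peak in at least 1 CHD4 list was found at 8 of the 22, beside 28.2% of all genes. At Dazl, Hormad1 and Sycp2 the CHD4 values in replicate 1 were below the median of that list, 8.05. Hox genes are clustered, so neighbouring genes can share a site.

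Olfactory receptor, keratin and collagen genes had fewer sites than the 25.2% of all genes with SIN3A only, 4.35% with both and 2.93% with CHD4 only, except for CHD4 only at collagens (4.65%). A CHD4 site without SIN3A was found at 1 of 1087 olfactory receptor genes and 1 of 46 keratin genes, and a SIN3A site at 0 of either. Of 43 collagen genes, 4 had SIN3A only and 2 had CHD4 only, and of 43 integrin and laminin genes 11 had SIN3A only, 2 both and 1 CHD4 only, which is 25.6%, 4.65% and 2.33% and near the shares over all genes. Genes named Zfp, a large zinc finger family, had SIN3A only at 25.6% of 344, both at 8.43% and CHD4 only at 4.07%. The highest SIN3A values of that family, 146 without and 96.5 with spike-in, were at a site shared by Zfp646 and Zfp668, whose windows overlap.

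**Figure D4:**
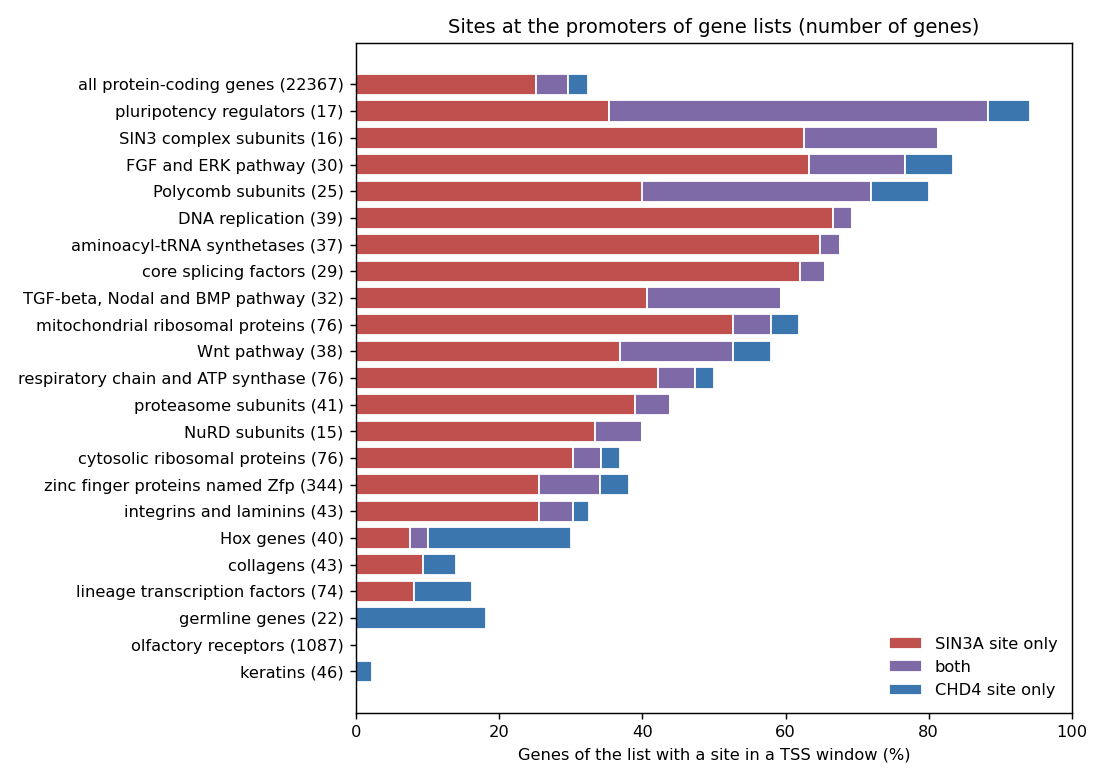
Share of the genes of each list (%) with a SIN3A site only, both or a CHD4 site only in a TSS window, with the number of genes in brackets and all protein-coding genes in the top bar (25.2%, 4.35% and 2.93%). Pluripotency regulators have the longest segment for both (52.9%), and Hox and germline genes the longest for CHD4 only (20% and 18.2%).

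The strongest single sites show how far the lists of one factor could differ. The SIN3A-only TSS site with the highest value with spike-in was at Abhd2, chr7:86417765-86418166, with 146 with and 6.64 without spike-in. The next, at Rnf44 (chr13:54794959-54795986), had 123 with and 97.8 without, and the third was Rpl22. The 3 strongest distal SIN3A-only sites had 142 to 167 with and 7.77 to 10.2 without spike-in, in an intron with Filip1l as nearest TSS, an exon near Limd1 and an intron near Txndc11. At Abhd2 and these 3 sites the high value was thus in 1 preparation only. None of the 6 sites had a CHD4 peak, which was so for 72.5% of all SIN3A-only sites.

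The strongest common TSS site was at Mll1 (chr9:44689216-44689856), a histone H3 lysine 4 methyltransferase gene, with SIN3A values of 41.6 without and 145 with spike-in and CHD4 values of 11.4 and 33.1. Hdgf (chr3:87709898-87710687) followed with 90.3 and 82.4 for SIN3A and 28.9 and 18.8 for CHD4, and then Ccdc57. The first 2 distal common sites lay on chromosome 8, chr8:20020106-20020554 and chr8:19784501-19785049, with SIN3A values of 67.0 and 46.4 without and 77.4 and 63.6 with spike-in. The third was upstream of Med13l and was also a peak of MBD3 in both ESC replicates and of GFP-ZFP296.

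The strongest CHD4-only TSS site was in Dll3 (chr7:29083840-29084236), a Notch ligand gene, 2766 bp downstream of its nearest TSS, with CHD4 values of 98.9 and 135 and no SIN3A peak. Rfwd3 had 63.1 and 97.2, and Jup, which encodes plakoglobin, had 56.0 and 57.3 beside a SIN3A peak of 15.6 without spike-in. The strongest distal site, in an intron with Bcar3 as nearest TSS (chr3:122137824-122138522), had CHD4 values of 141 and 161. It was followed by sites near Fkbp4 (64.2 and 16.3) and Bcl3 (62.4 and 44.6). These 6 sites had a CHD4 peak in both replicates by the rule, and only that in Jup had a SIN3A peak. Of all CHD4-only sites, 80.1% had no peak of either SIN3A list.

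Distal CHD4 peaks were stronger where SIN3A was present. In CHD4 replicate 1 the median peak value was 10.9 for 565 distal peaks with a SIN3A site and 8.11 for 8325 without, and in replicate 2 it was 12.6 for 833 and 8.75 for 20922. Their median widths were 334 and 223 bp in replicate 1 and 349 and 193 bp in replicate 2. At TSS the medians were 7.63 and 7.63 in replicate 1 and 8.63 and 8.01 in replicate 2. SIN3A medians with and without a CHD4 site were 14.2 and 12.04 at TSS and 11.3 and 10.6 at distal peaks in the list that had no spike-in. With spike-in they were 8.99 and 8.72 at TSS and 8.66 and 7.86 at distal peaks. At distal peaks the median was thus higher with a site of the other factor in every list. The sizes of these differences were not compared between lists, because peak values are comparable only within a list. These are differences between peaks of a list with no test, and the difference for SIN3A with spike-in over all peaks (0.0609) changed sign with the setting.

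Common distal sites overlapped peaks of other NuRD factors more often than the other classes did, with intervals that did not overlap and no test. A peak of MBD3 found in both ESC replicates overlapped 273 of 527 distal common sites (51.8%), 810 of 5793 distal CHD4-only sites (14.0%) and 21 of 698 distal SIN3A-only sites (3.01%). At TSS the shares were 17.1%, 7.84% and 0.297%. Over all positions they were 34.3% of common (31.5 to 37.3), 12.8% of CHD4-only (12.03 to 13.6) and 0.540% of SIN3A-only sites (0.389 to 0.729). With the peaks of CHD4 replicate 2 alone as CHD4 sites, 13.3% of common and 4.06% of CHD4-only sites had MBD3. Peaks of ZFP296, a zinc finger protein that binds NuRD and was precipitated by a GFP tag in another ESC line, overlapped 47.6% of distal common, 13.9% of distal CHD4-only and 9.03% of distal SIN3A-only sites.

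In neural progenitors (NPCs), 1 list each was analysed. NPC CHD4 peaks overlapped 34.1% of common, 22.7% of CHD4-only and 11.9% of SIN3A-only TSS sites. Among distal sites the shares were 12.7%, 8.87% and 13.8%. NPC MBD3 peaks overlapped 9.12% of common, 2.64% of CHD4-only and 2.97% of SIN3A-only TSS sites, and 2.09%, 0.587% and 3.15% of distal sites. Common sites thus had the highest shares in NPCs at promoters, but not at distal positions, where intervals of common and SIN3A-only sites overlapped.

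**Figure D5:**
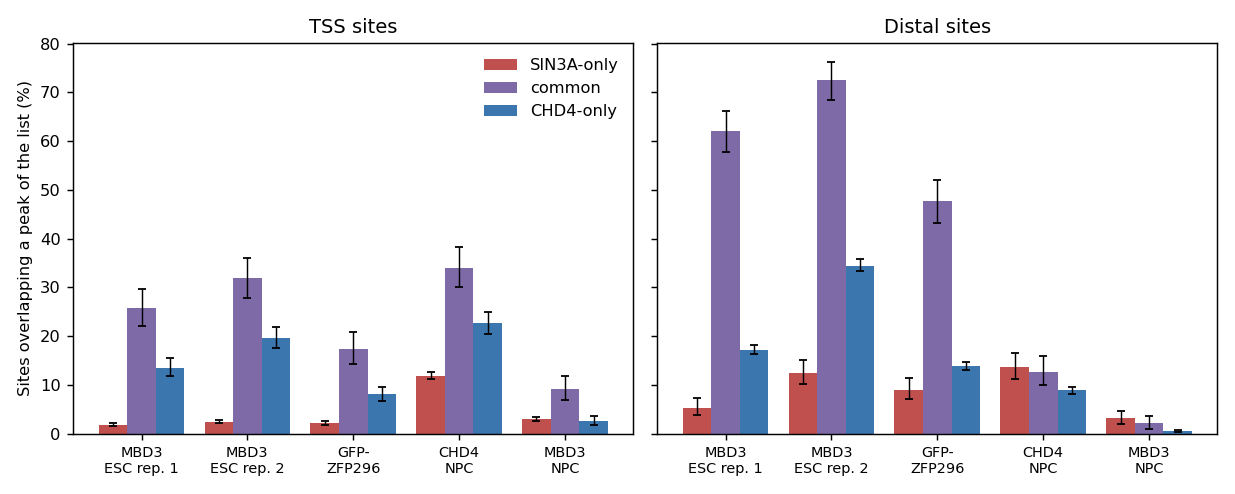
Share of TSS sites (left) and distal sites (right) of each class (%) that overlap a peak of MBD3 in ESC replicates 1 and 2, of GFP-ZFP296 in ESCs, and of CHD4 and MBD3 in NPCs, with 95% exact binomial intervals. Distal common sites are the highest for the 3 ESC lists, while in NPCs the highest shares are at TSS sites of the common class.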

How the data were processed

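The authors mapped reads to mm9 with BWA, kept unique reads of sufficient quality without duplicates and called peaks for each sample against an input with MACS (version 2.0 per the labels). The deposited value of each peak is a −log10 of a p-value or q-value, which of them was not given in the sources used here. Values were used as deposited, within a list only. No read counts per peak were used, so binding levels were not compared between lists.

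Midpoints were placed on the mm9 reference with GENCODE vM1 protein-coding transcripts. No peak ran past a chromosome end (0 of those checked), and 7 of 29 sequence names were contigs not in the reference. Shares have 95% exact intervals. Classes were compared by two-sided Fisher's exact tests (0.5 added to each cell for the odds ratio where a cell was 0) with Benjamini-Hochberg adjustment over 3 position or 132 string tests. Strings have up to 9 letters and none lies within another. Scripts were tested on simulated data. Tests used scipy 1.17.1 in Python 3.11.15 with numpy 2.4.6, figures matplotlib 3.10.9, and sequences samtools 1.23.1 and pyfaidx 0.9.0.4.

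Named sites were the 3 of highest peak value in each class at TSS and at distal positions, and up to 3 genes for each class of a list, with every member of 3 lists. Groups and replicates were taken from sample titles. The sites and lists were chosen with earlier results of these data known. The alternatives tried were 16 planned and 2 added after seeing the data.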

Additional observations from a re-analysis of the deposited data

How the results depend on the processing

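The 3 odds ratios of a TSS position kept their direction and stayed past the threshold under all 13 alternatives run for them. Peak lists hold no reads, so depth could not be weighed, and spike-in and preparation of SIN3A could not be told apart. No paired analysis was possible because the SIN3A labels carry no replicate numbers and no test compared samples. The cause of the changes below was not tested. Leaving out 1 list of a factor in turn, SIN3A sites with CHD4 ran from 11.8% to 34.0%, CHD4 sites with SIN3A from 10.2% to 26.8%, and TSS shares of SIN3A-only, common and CHD4-only sites from 83.7% to 93.1%, 42.1% to 72.7% and 16.1% to 22.2%. Genes with SIN3A only ran from 15.9% to 36.4%, with both from 4.86% to 13.7% and with CHD4 only from 1.502% to 12.7%. MBD3 at SIN3A-only, common and CHD4-only sites ran from 0.154% to 0.536%, 13.3% to 34.0% and 4.06% to 11.9%. The median peak value with minus without the other factor ran from 0.0609 to 0.455 in SIN3A with spike-in, 0.74 to 0.83 in CHD4 replicate 1 and 0.86 to 1.09 in replicate 2.

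With an overlap of at least 0.5 of the shorter peak, the shares of SIN3A and CHD4 sites with the other were 10.3% and 11.005%, the common TSS share 46.0%, genes with SIN3A only 24.2% and with both 3.88%, and the median differences 0.86 (SIN3A without spike-in), 1.06 and 1.39 (CHD4 replicates 1 and 2). With midpoints within 500 bp they were 15.0%, 15.7%, 58.1% (CHD4-only TSS share 17.7%), 25.8%, 4.81%, 0.0921, 0.326 and 0.353, the difference for SIN3A with spike-in reversed to -0.0336, and MBD3 at common sites was 30.0%. With peak values of 10 or more the site shares were 5.51% and 7.47%, common and CHD4-only TSS shares 35.5% and 17.6%, genes 13.3%, 0.617% and 1.404%, string tests passed 22, the SIN3A difference with spike-in reversed to -0.0293, CHD4 differences 1.91 and 1.81, and MBD3 at the 3 classes 2.09%, 60.3% and 27.8%. With the 8000 strongest peaks of each list these were 6.88%, 9.30%, 46.0%, 17.5%, 16.95%, 1.24%, 1.72%, 28, SIN3A differences 0 and 0.44, CHD4 differences 1.28 and 1.28, and MBD3 1.37%, 50.2% and 23.6%. Where only meant no peak in either list, TSS shares were 93.3% and 15.6% and MBD3 shares 0.0177% and 9.18%. Without chromosome 6 the CHD4 replicate 1 difference was 0.60. With 1 kb to each side of a TSS, TSS shares were 86.9%, 42.7% and 12.1%, and genes with both and CHD4 only 3.26% and 2.24%. With gene 5′ ends only, TSS shares were 86.0%, 45.5% and 16.04% and genes with both 3.84%. By nearest gene within 100 kb, genes were 18.8%, 9.53% and 7.82%. Alternatives were recomputed for 12 string tests, the 6 with odds ratios farthest from 1 at TSS and the 6 at distal sites, and not for single other strings. These never changed direction, and lost the threshold in 29 of 150 recomputations.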
